A study of Mus musculus with 8 samples.

Results

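The cell cycle and DNA replication genes described here are 43 mouse genes taken by name: the cyclins and their kinases, the E2F and retinoblastoma switch with its inhibitors, the origin licensing factors, the ribonucleotide reductase subunits, and the kinases, motors and structural proteins of mitosis. Each gene was represented in the short-read table by the assembled locus on its own strand that shared at least 0.5 of the joint span with the GENCODE M21 gene on mm10. 39 of the 43 had such a locus, out of 65265 rows in the table. Cdk2, E2f1, Mcm6 and Pcna had none, because the assembly joined each of them to a neighbouring gene.

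HL1 is a line of mouse atrial cardiomyocytes that keep dividing in culture. The cells were grown in Claycomb medium with 10% fetal bovine serum, 0.1 mM norepinephrine and 30 mM ascorbic acid, so all groups share these additions. The labels name no further treatment or genetic change that sets a group apart, and the genetic background of the line itself was not examined. Nuclei were extracted with urea and detergent, which split nuclear RNA into a soluble nucleoplasm fraction and a chromatin pellet. Each fraction was sequenced as 50 bp stranded short reads in 3 libraries, from independent cultures, and the chromatin fraction also as long reads in 2 libraries.

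The short-read libraries held between 91657034 and 121773350 reads. A label field calls the 3 nucleoplasm libraries chromatin while their titles say nucleoplasm, and the titles were followed. Malat1, a nuclear RNA kept at chromatin, lay between 1443670 and 1811940 normalized counts in the chromatin libraries and between 112363 and 117007 in the nucleoplasm libraries. Of 10 cardiomyocyte genes, 8 had a row and all 8 reached at least 10 normalized counts in every library, with Nppa the lowest at 10.4 to 112.7. Of 6 fibroblast genes, 4 reached 10 in every library, with Col1a1 at 101002 to 344726 but Col1a2 at 42.7 to 513.9, Dcn at 20.3 to 350.1, Lum at 0 to 2.02 and Tcf21 at 0. All 3 smooth muscle genes did, from Cnn1 at 47.2 to 323.2 up to Acta2 at 49701 to 202137. Of 4 endothelial genes, Kdr lay at 808 to 2570 and Tek at 187 to 364, Pecam1 at 0 to 54.1 and Cdh5 at 0. Of 4 blood genes, Cd68 lay at 39.1 to 149.9, Ptprc at 0 to 4.07, and Adgre1 and Hbb-bs at 0. As the libraries are bulk, a smaller share of dividing cells and less RNA per cell cannot be told apart where cultures differ. The fractions compared here were split from the nuclei of the same cultures.

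Passage through the cell cycle is driven by cyclin-dependent kinases, whose cyclin partners are made and destroyed in turn. D-type and E-type cyclins take cells past the retinoblastoma block and release E2F factors, which switch on genes of replication. Genes of mitosis are switched on later, through promoters that carry a cell cycle homology region (CHR) and CCAAT boxes. RNA found with chromatin includes transcripts still being made, whereas the nucleoplasm holds released ones.

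RefSeq promoter windows of 300 bases, from 250 before the start to 50 after it on GRCm38.p6, were at hand for 34 of the 43 genes. Each was searched on both strands for a CHR word, spelled TTTGAA or, in a rarer form of the same element, spelled TTCGAA instead. The box named for its letters, CCAAT, and an E2F word (TTTGGCGC, TTTCGCGC, TTTCCCGC or TTTGCCGC) were searched in the same way. In the windows below, given 5′ to 3′ on the gene's strand, capitals mark these words. They are Cdk1, the kinase that starts mitosis and one of the 3 genes higher in chromatin, its partner Ccnb2 with one of the lowest, the helicase subunit Mcm5, and the proliferation marker Mki67.
Cdk1, chr10:69352863-69353162, minus strand: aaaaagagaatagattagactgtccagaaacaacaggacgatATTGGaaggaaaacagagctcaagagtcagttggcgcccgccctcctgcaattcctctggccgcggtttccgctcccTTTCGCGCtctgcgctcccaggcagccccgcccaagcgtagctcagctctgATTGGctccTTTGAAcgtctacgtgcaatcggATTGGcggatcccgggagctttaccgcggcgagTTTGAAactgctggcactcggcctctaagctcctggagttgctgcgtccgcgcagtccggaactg
Ccnb2, chr9:70421505-70421804, minus strand: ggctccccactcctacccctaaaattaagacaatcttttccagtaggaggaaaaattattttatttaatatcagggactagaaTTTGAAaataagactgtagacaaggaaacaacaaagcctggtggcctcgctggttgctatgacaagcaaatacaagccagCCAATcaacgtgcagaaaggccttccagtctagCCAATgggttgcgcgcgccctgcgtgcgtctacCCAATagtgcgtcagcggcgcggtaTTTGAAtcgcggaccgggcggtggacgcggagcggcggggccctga
Mcm5, chr8:75109259-75109558, plus strand: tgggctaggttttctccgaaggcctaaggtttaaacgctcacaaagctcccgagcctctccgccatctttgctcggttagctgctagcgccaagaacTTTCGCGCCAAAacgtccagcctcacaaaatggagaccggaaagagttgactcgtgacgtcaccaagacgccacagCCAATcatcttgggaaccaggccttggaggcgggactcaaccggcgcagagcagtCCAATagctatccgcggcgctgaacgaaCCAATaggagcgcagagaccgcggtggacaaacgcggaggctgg
Mki67, chr7:135716330-135716629, minus strand: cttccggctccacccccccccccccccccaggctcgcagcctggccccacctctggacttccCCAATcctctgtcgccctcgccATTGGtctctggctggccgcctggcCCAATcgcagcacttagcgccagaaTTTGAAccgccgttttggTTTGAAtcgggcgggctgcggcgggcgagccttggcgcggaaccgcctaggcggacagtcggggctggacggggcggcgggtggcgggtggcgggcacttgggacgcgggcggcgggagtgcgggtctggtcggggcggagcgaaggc

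Cdk1 held 2 CHR words, 3 CCAAT boxes and 1 E2F word, and Ccnb2 held 2 CHR words and 3 CCAAT boxes. Mcm5 held 2 E2F words that overlap on opposite strands and 3 CCAAT boxes. Among the 34 genes, 14 windows held a CHR word, against 19.2% of all 32851 RefSeq windows of the same length. CCAAT was in 25, against 37.4%, and an E2F word in 9, against 2.26%. All 14 windows with a CHR word also held CCAAT, a combination found in 7.52% of all windows. By role, 6 of the 7 licensing genes held an E2F word, and 5 of the 6 mitotic kinase and checkpoint genes held a CHR word. A match in letters is not a bound site.

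Calls of lower in chromatin outnumbered calls of higher for these genes, as they also did among abundant protein-coding genes. In chromatin, 25 of the 39 measured genes were lower than in the nucleoplasm, 3 were higher (Cdk1, Cenpe and Cdc25a), and 11 did not pass the test (limma, adjusted p under 0.05 over 30819 features). Of all features tested, 24.9% were lower and 31% higher. Of the 10661 protein-coding genes whose mean reached 100 normalized counts, 46% were lower and 26.2% higher. The shares among the cell cycle genes were 64.1% and 7.69%. None of the 39 was more than 4 fold higher in chromatin, which 16.7% of all features and 4.14% of the abundant coding genes were. None was more than 4 fold lower either, against 5.51% and 6.11%, though with quantile scaling Ccnd1 (-2.41) and Rrm2 (-2.03) were.

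In the plot of values by library, the 3 chromatin libraries lay wholly below the 3 nucleoplasm libraries for 25 genes and wholly above for 4. Over all features these shares were 27.5% and 34.6%, and over the abundant coding genes 49.5% and 28.4%. The median log2 fold change, chromatin over nucleoplasm on log2(normalized count + 1), was -0.61 over the 39 genes, -0.36 over the abundant coding genes and 0.34 over all features.

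**Figure D1:**
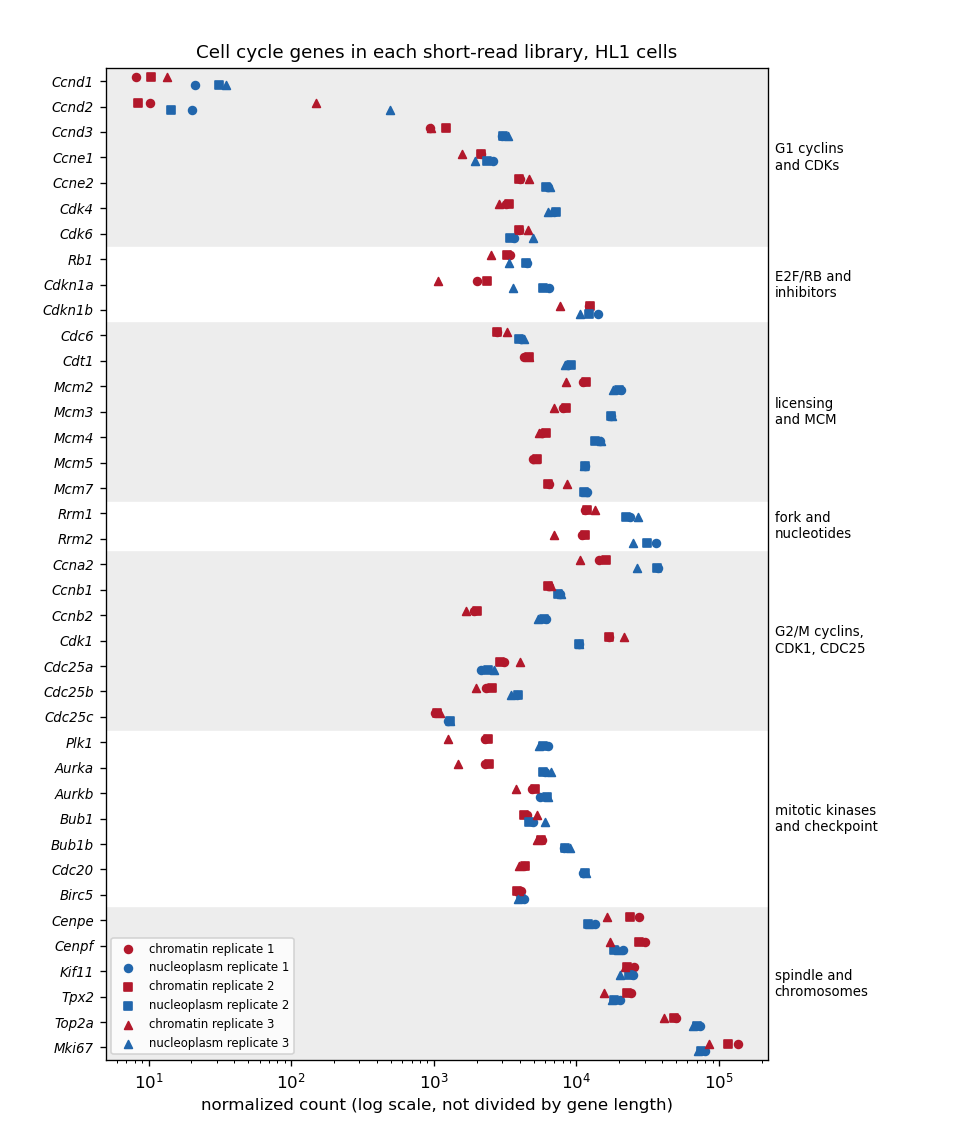
Normalized count of each measured cell cycle gene in each short-read library (horizontal log scale, not divided by gene length), grouped by role. Red marks are the 3 chromatin and blue marks the 3 nucleoplasm libraries. Red lies wholly left of blue for 25 genes and wholly right for 4, and Ccnd2 is the gene whose replicate 3 (triangles) stands far from the others in both fractions.

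These directions depend on the scaling. The deposited counts are scaled by DESeq2 size factors, while the ERCC standards, synthetic RNAs added in equal volume to each fraction, summed to 183950 to 213760 normalized counts in chromatin and 261886 to 392823 in the nucleoplasm. The study describes the standards as equivalent between the fractions, from normalized counts averaged over replicates. With each library scaled to the standards, log2 fold changes rose by a median of 0.72 over the features, and the median fold change of all features went from 0.34 to 0.81. On that scale 8 cell cycle genes were higher in chromatin and 7 lower, while 40.6% of all features were higher and 10.5% lower, and of the abundant coding genes 40.1% and 16.2%. 14 of the 39 changed sign. With the replicate numbers taken as pairs, 4 were higher and 28 lower, against 34.5% and 28.8% of all features. Values given here are on the size-factor scale, and each gene whose call is lost or gained with the standards is named as such. Cdk1, Cenpe and Cdc25a were higher on both scales, and Ccnd3, Cdkn1a, Rrm2, Ccnb2, Plk1, Aurka and Cdc20 lower on both.

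**Figure D2:**
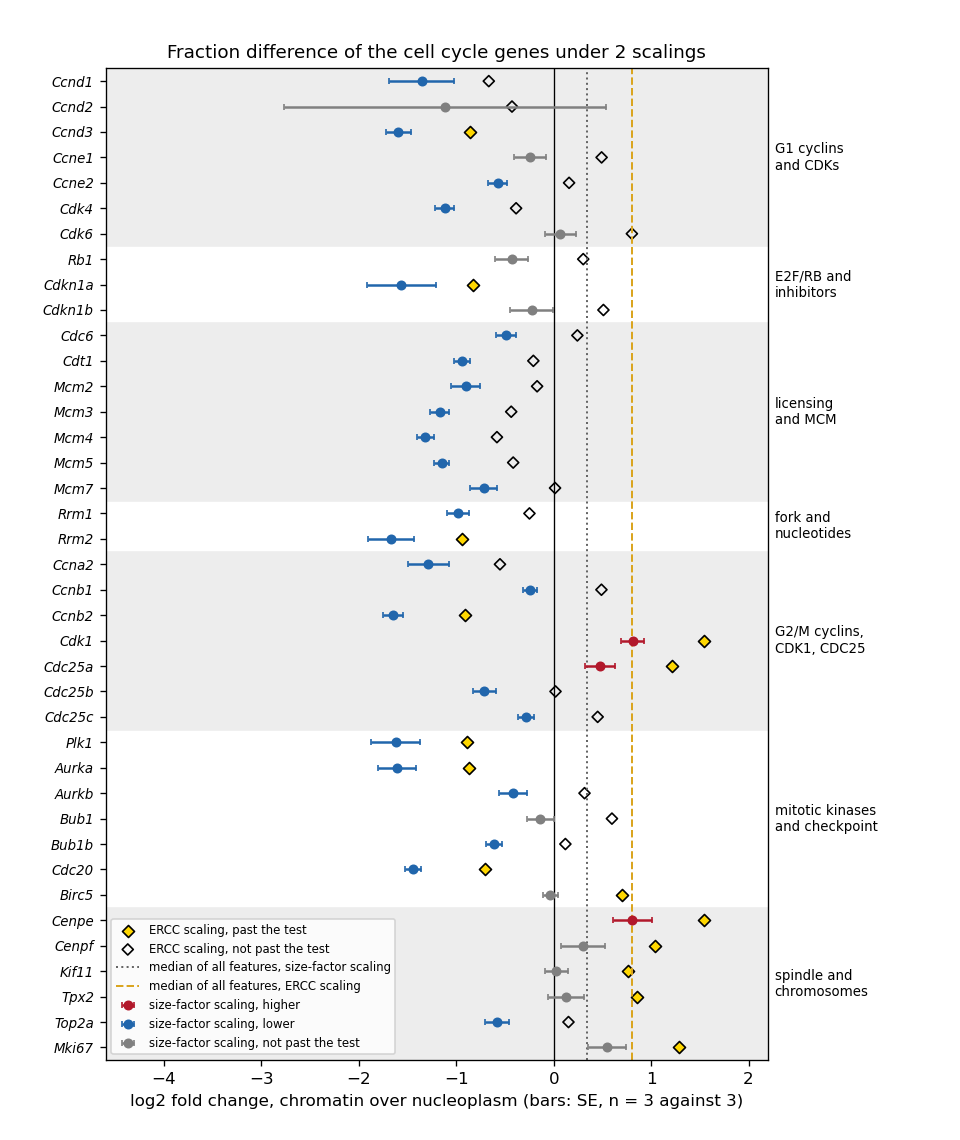
Log2 fold change of chromatin over nucleoplasm (horizontal axis) for each measured cell cycle gene, by role. Circles with bars are the size-factor values with their SE, red for higher, blue for lower and grey for not past the test. Diamonds are the values scaled to the ERCC standards, filled where past the test. The vertical lines mark the medians of all features, 0.34 and 0.81, and most circles and diamonds lie left of their own line.

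The D-type cyclins, which pair with Cdk4 and Cdk6 to start the phosphorylation of the retinoblastoma protein, differed widely in abundance. Ccnd3 carried nearly all of their signal. It measured 938, 1223 and 954 normalized counts in chromatin and 3012, 3047 and 3302 in the nucleoplasm. Every chromatin value was under every nucleoplasm value, a log2 fold change of -1.60 ± 0.13 (SE, adjusted p = 9.5e-05). Per kilobase of exon, Ccnd3 stood at 118 ± 18.2 in chromatin (SD, n = 3) against 2.28 ± 0.575 for Ccnd1.

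Ccnd1 was close to the counting limit. Its normalized counts were 8.13, 10.5 and 13.5 in chromatin and 21.2, 31.2 and 34.8 in the nucleoplasm, with 3 reads worth 2.17 to 3.60 normalized counts. The groups did not overlap, and the log2 fold change was -1.36 ± 0.33 (adjusted p = 0.013), a call that is lost with the standards. Quantile scaling moved it to -2.41 (adjusted p = 0.00096).

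Ccnd2, a D-type cyclin of the same function, stood apart by culture. It measured 10.2, 8.38 and 148.8 in chromatin and 20.2, 14.4 and 490.7 in the nucleoplasm. Replicate 3 was 16 fold above the mean of the other replicates in chromatin and 28.4 fold in the nucleoplasm. The groups overlapped, and the fraction difference of -1.12 ± 1.65 did not pass the test (adjusted p = 0.58). With the replicate number as a block it did (adjusted p = 0.018), since the nucleoplasm was higher in each pair. In both fractions replicate 3 was also the lowest library for 6 of the 8 measured cardiomyocyte genes and the highest for the other two, Gata4 and Mef2c. It was the highest for 4 of the 6 fibroblast genes, while Lum was at 0 to 2.02 and Tcf21 at 0. The cardiomyocyte genes summed to 260569 in chromatin replicate 3, against 341001 and 353879, and to 81184 in nucleoplasm replicate 3, against 116563 and 120041. The fibroblast genes summed to 117258, against 101764 and 113724, and to 347926, against 212681 and 217539. Col1a1 alone made up 115918 and 344726 of these replicate 3 sums. The smooth muscle genes summed to 50479, against 76295 and 79372, and to 146734, against 198857 and 202666. In both fractions replicate 3 was the lowest for 1 of these 3 genes and the highest for 2. It was the lowest for 2 of 4 endothelial genes and the highest for 0. Their part in the Ccnd2 values was not tested.

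Of the kinase partners of these cyclins, Cdk4 was lower in chromatin and Cdk6 did not pass the test. Cdk4 measured 3182, 3351 and 2873 normalized counts there and 6908, 7170 and 6354 in the nucleoplasm. The groups were well apart, and the log2 fold change was -1.12 ± 0.10 (adjusted p = 1.3e-04), though not past the test with the standards. Cdk6 measured 3941, 3966 and 4588 in chromatin and 3631, 3448 and 4962 in the nucleoplasm, with overlapping groups and a log2 difference of 0.07 ± 0.16 (adjusted p = 0.73).

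Of the E-type cyclins, which activate Cdk2 at the entry to S phase, Ccne2 fell by 0.58 ± 0.09 on the log2 scale (adjusted p = 0.0022), a call that is lost with the standards. Ccne1 measured 2131, 2127 and 1584 in chromatin and 2599, 2347 and 1947 in the nucleoplasm. These groups overlapped and the difference of -0.24 ± 0.17 did not pass the test (adjusted p = 0.27) unless replicates were paired (adjusted p = 0.025).

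At the restriction point, Cdkn1a, which encodes the inhibitor p21, was lower in chromatin, and Rb1 and Cdkn1b did not pass the test. Cdkn1a measured 2000, 2371 and 1074 in chromatin and 6384, 5811 and 3562 in the nucleoplasm. Replicate 3 was the lowest in each fraction, but the groups did not overlap, and the log2 fold change was -1.57 ± 0.35 (adjusted p = 0.0092). Rb1, which restrains E2F, measured 3398, 3257 and 2506 in chromatin and 4530, 4426 and 3388 in the nucleoplasm. The highest chromatin library lay just above the lowest nucleoplasm library, and the difference of -0.43 ± 0.17 gave an adjusted p of 0.072, or 0.0018 with replicates paired. On recovered reads the adjusted p was 0.031 in edgeR and 0.048 in DESeq2. The Rb1 locus in the table spans 131433 bp of the gene's 142150 bp. Cdkn1b, the gene of the inhibitor p27, measured 12225, 12389 and 7625 in chromatin and 14114, 12335 and 10557 in the nucleoplasm, with overlapping groups and a difference of -0.22 ± 0.22 (adjusted p = 0.42).

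All 7 measured genes of origin licensing were lower in chromatin, with log2 fold changes from -1.32 to -0.49. Cdc6 and Cdt1 load the MCM helicase, of which Mcm2 to Mcm7 encode the subunits, onto origins. Mcm4 was the lowest at -1.32 ± 0.09 (adjusted p = 5.0e-05). Mcm5, whose promoter is printed above, measured 4958, 5332 and 5210 in chromatin and 11535, 11561 and 11284 in the nucleoplasm, a log2 fold change of -1.15 ± 0.08 (adjusted p = 4.9e-05). Its 2 groups were more than a factor of 2 apart, with little spread within either. Per kilobase of exon, the chromatin levels of the helicase genes ran from 1294 ± 47.8 for Mcm5 to 2089 ± 195 for Mcm3, and each of the 5 measured subunits was lower than in the nucleoplasm. With the standards none of the 7 passed the test, and their values ran from -0.58 for Mcm4 to 0.24 for Cdc6, all below the median of all features on that scale.

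Both subunits of ribonucleotide reductase, which supplies the deoxynucleotides for replication, were lower in chromatin. Rrm2, the regulatory subunit, was among the genes with the lowest ratio. It measured 10982, 11564 and 6956 in chromatin and 36360.0, 31429 and 25071 in the nucleoplasm, a log2 fold change of -1.67 ± 0.24 (adjusted p = 0.0012), or 3.15 fold between the group means. Chromatin replicate 3 was the lowest library, and the highest chromatin value was under the lowest nucleoplasm value. Rrm1 fell by 0.98 ± 0.12 on the log2 scale (adjusted p = 5.1e-04), a call that is lost with the standards.

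Cdk1 and the B-type cyclin Ccnb2, which act as one kinase in mitosis, differed between the fractions in opposite directions. Cdk1 measured 17026, 17027 and 21376 in chromatin and 10495, 10498 and 10430.0 in the nucleoplasm. All chromatin libraries were higher, by 0.81 ± 0.12 on the log2 scale (adjusted p = 0.0012). Ccnb2 measured 1904, 2014 and 1671 in chromatin and 6139, 5947 and 5409 in the nucleoplasm, a log2 fold change of -1.65 ± 0.10 (adjusted p = 4.1e-05). Both promoters hold CHR words and CCAAT boxes.

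The other cyclins of this phase were lower in chromatin. Ccna2, which acts in S phase and G2, measured 14472, 16180 and 10616 in chromatin and 37066, 36506 and 26614 in the nucleoplasm, a log2 fold change of -1.29 ± 0.21 (adjusted p = 0.0021). Chromatin replicate 3 was again the lowest, and the groups were apart. With the standards the value was -0.55 (adjusted p = 0.051). Ccnb1, the other B-type cyclin, had a small difference, with 6430.0, 6308 and 6588 in chromatin and 7689, 7378 and 7819 in the nucleoplasm. The difference of -0.24 ± 0.08 passed the test (adjusted p = 0.032) but not after leaving out any one of 5 of the 6 libraries (chromatin 1 or 2, or any nucleoplasm library), where the adjusted p reached 0.11. With the standards it was 0.49 (adjusted p = 0.094). The Ccnb1 locus runs 1982 bp beyond the annotated gene.

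The CDC25 phosphatases, which remove the inhibitory phosphates from the kinases, were split. Cdc25a, which acts from G1 on, measured 3087, 2933 and 4049 in chromatin and 2129, 2393 and 2651 in the nucleoplasm. The groups did not overlap and the log2 difference was 0.48 ± 0.15 (adjusted p = 0.036), up to 0.12 on leaving out chromatin 1 or 3 or nucleoplasm 1 or 2, each of which ends the call. Its locus extends 1827 bp beyond the gene. Cdc25b, of the G2 to M step, fell by 0.72 ± 0.12 on the log2 scale (adjusted p = 0.0023) and Cdc25c by 0.28 ± 0.08 (adjusted p = 0.023). Both lose the call with the standards, and Cdc25c also on leaving out any one of chromatin 1 or 2 or nucleoplasm 1 or 2.

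Of the mitotic kinase and checkpoint genes, 5 of 7 were lower in chromatin. Plk1, which drives centrosome maturation and mitotic entry, measured 2283, 2401 and 1266 in chromatin and 6306, 5852 and 5504 in the nucleoplasm, a log2 fold change of -1.62 ± 0.25 (adjusted p = 0.0017). Aurka, the spindle pole kinase, measured 2294, 2431 and 1485 in chromatin and 6046, 5820 and 6661 in the nucleoplasm, a log2 fold change of -1.61 ± 0.20 (adjusted p = 6.2e-04). For both, chromatin replicate 3 was the lowest library and the groups were more than a factor of 2 apart. Cdc20, the activator of the anaphase-promoting complex, measured 4268, 4377 and 3981 in chromatin and 11156, 11510 and 11650 in the nucleoplasm, a log2 fold change of -1.44 ± 0.08 (adjusted p = 2.7e-05).

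The chromosomal passenger and spindle checkpoint genes had smaller differences. Bub1b, of the checkpoint, fell by 0.61 ± 0.08 on the log2 scale (adjusted p = 9.9e-04), and Aurkb by 0.42 ± 0.14 (adjusted p = 0.043). Both calls are lost with the standards, and that of Aurkb also without chromatin 1 or any one nucleoplasm library. Bub1, at -0.14 ± 0.14 (adjusted p = 0.43), and Birc5, the survivin gene, at -0.03 ± 0.08 (adjusted p = 0.74), did not pass the test. The Birc5 locus runs 3823 bp past the gene, and with the standards it was higher in chromatin by 0.70 (adjusted p = 0.016).

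Among the 39 genes, the spindle, kinetochore and chromosome genes were the role with the highest median log2 fold change, 0.21 against -0.94 for licensing. In the wider list described further on, this order was the other way, with 0.13 over 50 spindle genes and 0.30 over 19 licensing genes. All 6 spindle genes measured here span over 25 kb, and coding genes of that length had a median of 0.07. Cenpe, the kinetochore motor, measured 27308, 23800 and 16427 in chromatin and 13496, 12051 and 12221 in the nucleoplasm. Chromatin replicate 3 was the lowest of its group but above all nucleoplasm libraries, and the difference was 0.81 ± 0.20 (adjusted p = 0.012). Quantile scaling of the libraries ended that call (0.43, adjusted p = 0.096). Mki67, which coats mitotic chromosomes, was the most abundant of the 39 genes in chromatin per kilobase of exon, at 11119 ± 2532 (SD, n = 3). It measured 135465, 115289 and 84864 in chromatin and 79082, 75106 and 71342 in the nucleoplasm. The groups did not overlap, yet the difference of 0.55 ± 0.20 just missed the threshold (adjusted p = 0.052). It passed with replicates paired (adjusted p = 0.020), without chromatin replicate 3, and with the standards (1.28, adjusted p = 0.0041). The Mki67 locus runs 11663 bp beyond the gene, so its value per kilobase of the gene's exons may hold signal from outside the gene.

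Of the others in this role, only Top2a, the topoisomerase that untangles sister chromatids, was lower in chromatin. It measured 50128, 48256 and 41088 in chromatin and 73054, 69824 and 65382 in the nucleoplasm, a log2 fold change of -0.58 ± 0.13 (adjusted p = 0.0076), a call that is lost with the standards. Cenpf, a kinetochore protein, measured 30468, 27564 and 17075 in chromatin and 21179, 18354 and 19619 in the nucleoplasm. Its chromatin replicate 3 fell below all nucleoplasm libraries, and the difference of 0.30 ± 0.23 did not pass the test (adjusted p = 0.31). The spindle motor Kif11 measured 25291, 22720 and 21785 in chromatin and 24779, 23501 and 20254 in the nucleoplasm, with overlapping groups and a difference of 0.03 ± 0.12 (adjusted p = 0.85). The spindle assembly factor Tpx2 measured 24249, 22557 and 15586 in chromatin and 20115, 18426 and 17730 in the nucleoplasm, where chromatin replicate 3 was below every nucleoplasm library (0.13 ± 0.18, adjusted p = 0.58). With the standards Cenpf, Kif11 and Tpx2 were higher in chromatin, by 1.04, 0.76 and 0.86. With quantile scaling the values were -0.10, -0.41 and -0.28, and Kif11 was lower (adjusted p = 0.025).

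Chromatin replicate 3 was the lowest chromatin library for 23 of the 38 cell cycle genes averaging 100 normalized counts or more, or 60.5%, against 52.4% of all 15617 such features. Without either replicate 3 library, 6 of the 39 genes were higher (Mki67, Cenpf and Tpx2 joining the 3) and 25 lower, an alternative chosen after the data were seen.

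For the 4 genes joined to a neighbour, the shared locus is all that the table gives. The locus of Pcna, the sliding clamp of the replication fork, is shared with Tmem230 and measured 4806, 4811 and 9604 in chromatin and 13529, 13400 and 14391 in the nucleoplasm. The E2f1 locus, shared with Necab3, measured 5866, 6450.4 and 5001 in chromatin and 5483, 5896 and 4443 in the nucleoplasm, with overlapping groups. The Cdk2 locus is shared with Rab5b and that of Mcm6 with Dars. The log2 fold changes were -1.18 for the Pcna locus (adjusted p = 0.011), -0.66 for Cdk2 (0.0033), -0.48 for Mcm6 (0.0031) and 0.13 for E2f1 (0.48). None of these can be credited to the cell cycle gene alone.

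The fraction difference went with gene length. Over the 39 genes Spearman's rho of the log2 fold change was 0.38 with gene span and 0.53 with exon length. Over the 10661 abundant coding genes it was 0.49 and 0.52. These are correlations across genes of the same 6 libraries and carry no test. Of the 13 cell cycle genes under 10 kb, 10 were lower and none higher, with a median of -0.94, while 75.9% of the coding genes of that length were lower, with a median of -1.26. From 10 to 25 kb, 11 of 13 were lower and 2 higher, against 55.4% and 19.3% of coding genes. Over 25 kb, 4 of 13 were lower and 1 higher, against 29.1% and 37.2%.

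**Figure D3:**
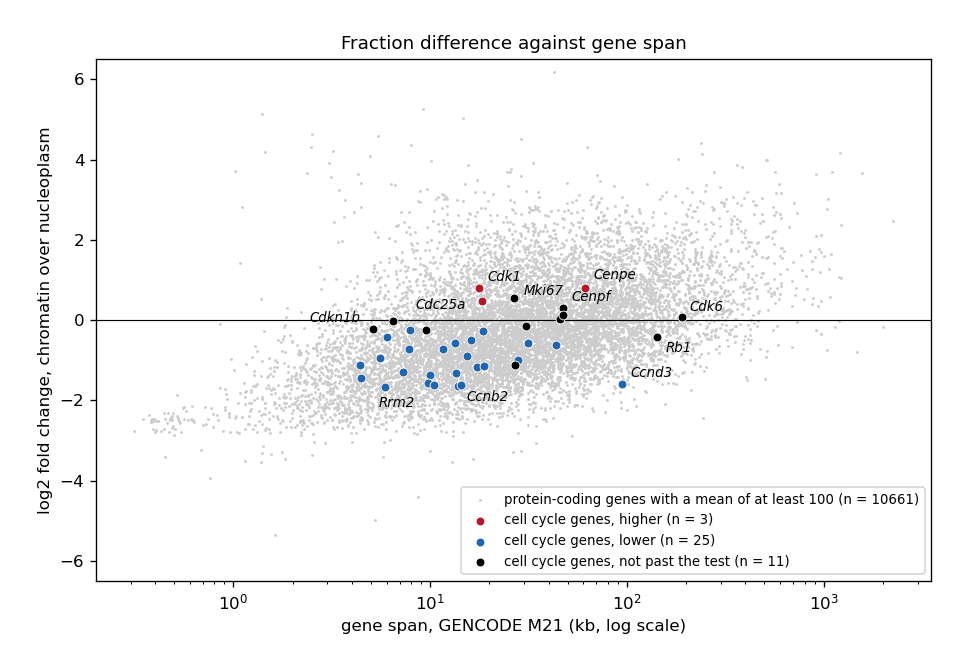
Log2 fold change of chromatin over nucleoplasm (vertical axis) against gene span in kb (horizontal log axis). Grey points are the same 10661 coding genes, and coloured points the 39 cell cycle genes by call. Ccnd3 lies low for its 94.6 kb, and Cdk1 and Mki67 high for 17.8 and 26.6 kb.

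Single genes departed from this order. Ccnd3 spans 94.6 kb and was among the lowest at -1.60, while Cdk1 spans 17.8 kb and was, with Cenpe, the highest at 0.81. The longest of the 39, Cdk6 at 189.5 kb and Rb1 at 142.2 kb, did not pass the test.

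Long reads showed transcripts of nearly all these genes in chromatin. Counting only transcripts whose whole span lay inside the annotated gene on its strand, 28 of 43 were above 0 TPM in both libraries. Transcripts that ran a little past a gene's end were missed by that rule, among them those of Mki67 and Ccnb2. With at least 0.5 of the span inside, a rule set after the values were seen, 42 of 43 were above 0 in both, and Ccnd2 was listed at 0. Top2a was the highest at 162 and 194 TPM, followed by Mki67 at 168 and 135, Rrm2 at 113 and 118, Pcna at 97.8 and 127.5 and Cenpe at 117 and 90.5. The replicates ranked the 42 genes alike, with a Spearman's rho of 0.86. Against the short-read chromatin count per kilobase of exon, rho was 0.67 over 38 genes.

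**Figure D4:**
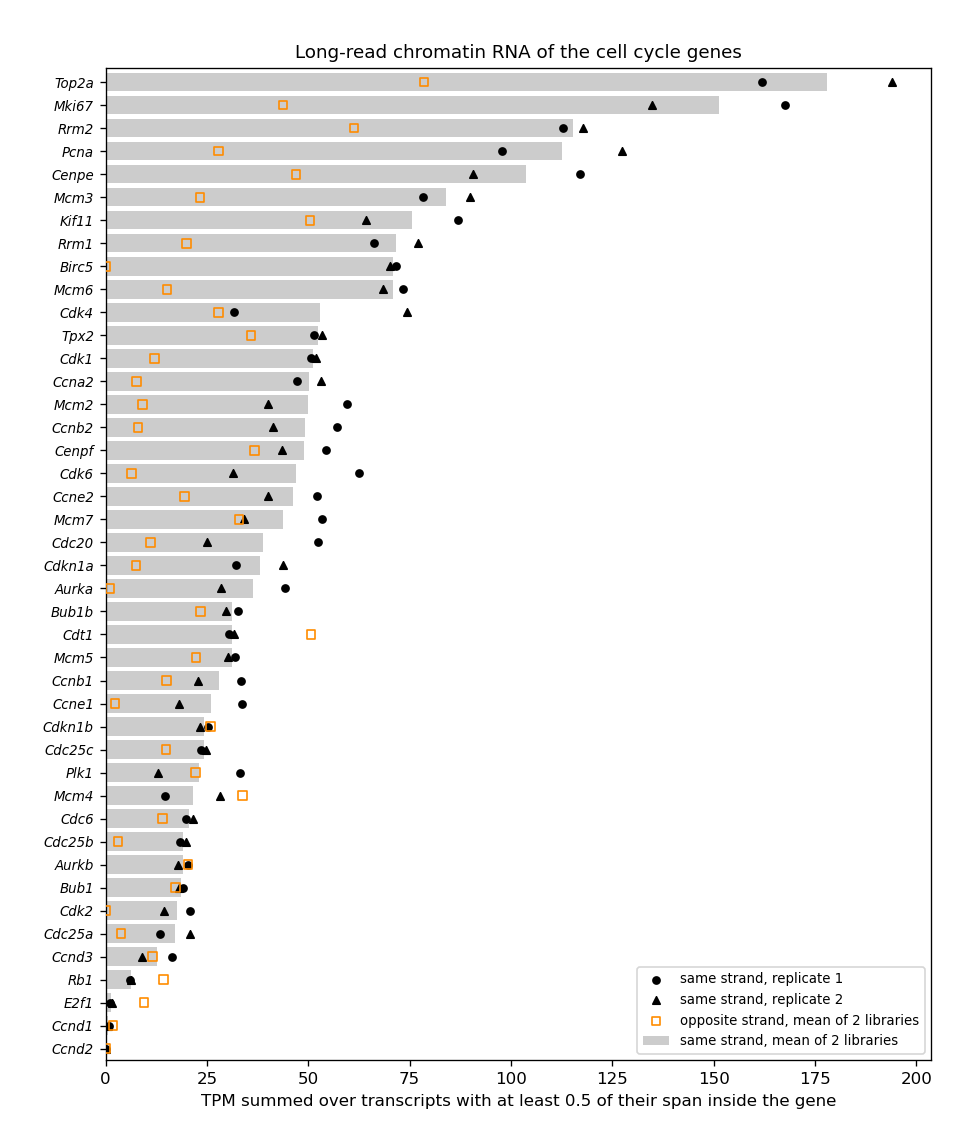
Long-read TPM of each of the 43 cell cycle genes in chromatin (horizontal axis), summed over transcripts with at least 0.5 of their span inside the gene. Grey bars are the mean of 2 libraries on the gene's strand, black marks each library, and orange squares the mean on the opposite strand. Top2a is the highest at 162 and 194 TPM, and Ccnd2 is listed at 0.

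Transcripts assigned to the opposite strand of the same genes summed to 883 and 895 TPM, against 2078 and 1946 on the gene's strand. The mean on the opposite strand exceeded that on the gene's strand for Ccnd1, Rb1, E2f1, Cdkn1b, Cdt1, Mcm4 and Aurkb. For Cdt1 these means were 50.6 and 31.1 TPM. For every other gene above 0 the mean was higher on the gene's strand. The long-read cDNA does not keep strand, so how much of this is antisense RNA was not tested. The long-read level of Pcna, 112.7 TPM on average, counted no transcript lying mostly in Tmem230, whereas E2f1 had 1.14 and 1.66 TPM and Cdk2 20.9 and 14.3.

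Beyond the 43, a wider list of 159 cell cycle and replication genes had 151 measured, of which 53 were higher in chromatin, 57 lower and 41 not past the test. These are 35.1% and 37.7% of the list, beside 31% and 24.9% of all features and 26.2% and 46% of the abundant coding genes. The share that was higher was thus somewhat above both backgrounds, and the share that was lower lay between them. The median log2 fold change was -0.07, against -0.61 for the 39 genes above and -0.36 for the abundant coding genes. With the standards 75 were higher and 19 lower, beside 40.6% and 10.5% of all features and 40.1% and 16.2% of the abundant coding genes. The largest falls were in the CDK inhibitors Cdkn2a (-2.60 ± 0.26), Cdkn1c (-2.10 ± 0.50) and Cdkn2d (-2.03 ± 0.28), in Cks1b (-2.33 ± 0.24), a small subunit of the CDK complexes, and in Dut (-1.83 ± 0.09), which removes dUTP. The largest rises were in Lin52 (3.06 ± 0.11), part of the MuvB complex at cell cycle promoters, the primase subunit Prim2 (2.73 ± 0.10), the spindle motor Kif15 (2.18 ± 0.14), E2f5 (1.89 ± 0.12) and the origin recognition subunit Orc1 (1.86 ± 0.19). These 10 were past the test on both scales. The 5 that fell span 2.71 to 20.2 kb and the 5 that rose 27.7 to 216 kb.

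By role, of the 25 genes of the replication fork and nucleotide supply, 14 were lower and 4 higher, but with the standards 5 and 9. Of the 19 mitotic kinase and checkpoint genes 11 were lower and 3 higher, and with the standards 3 and 3. Of the 19 further licensing and origin genes 5 were lower and 10 higher, and with the standards 2 and 11. Of the 50 spindle, kinetochore and chromosome genes 19 were lower and 21 higher, and with the standards 3 and 28. Over all features the shares were 24.9% lower and 31% higher, and with the standards 10.5% and 40.6%. Over the abundant coding genes they were 46% and 26.2%, and with the standards 16.2% and 40.1%.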

How the data were processed

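Per the labels and the study's methods, the authors aligned HL1 short reads to mm10 with HISAT2 2.1.0, assembled and re-estimated transcripts with StringTie, and deposited gene counts divided by DESeq2 size factors, a signal with no scaling for length. The long-read table holds TPM, which the authors estimated with StringTie from minimap2 alignments. Each short-read value was 100% a whole multiple of its library's step (tolerance 0.1 read), so reads were recovered for the count-based alternatives.

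Loci were matched to GENCODE M21 by same-strand overlap, with RefSeq accession rows as a fallback, which held no row for the 4 members without a locus. limma 3.58.1 (R 4.3.3, with trend) compared 3 chromatin with 3 nucleoplasm libraries on log2(normalized count + 1), for features above 0 in at least 1 library, two-sided, with Benjamini-Hochberg adjustment over all 30819. The main fit treated all libraries as independent and did not pair the fractions of a culture. Its p-values set the fraction difference against the spread between 3 independent cultures within a fraction. Depth was 91657034 to 121773350 reads. Precision is limited by 3 libraries per fraction, and limits set by 3 reads cover counting error only. Alternatives were edgeR 4.0.16, DESeq2 1.42.0, other pseudocounts, filters, scalings, locus rules and libraries, and the replicate number as a block. The block takes the numbers as pairs: deviations of same-numbered libraries correlated at 0.25, 0.23 and 0.50 (features with a mean of at least 10). Chromatin 1 with nucleoplasm 2 gave 0.14 and chromatin 2 with nucleoplasm 1 gave 0.20. The match of numbers is thus clear for replicate 3 and weak between replicates 1 and 2.

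Values in every library are given for the 8 highest and 8 lowest members and for Mki67, Top2a, Pcna, Cdk1, Ccna2, Ccnb1, Ccnd1, Ccnd2, Ccnd3, Ccne1, Cdk4, Cdk6, E2f1, Rb1, Cdkn1a and Cdkn1b. From the wider list, the 5 largest changes each way with a mean of at least 100 are named. Members, lists and rules were chosen with earlier results of these data known, and the abundant coding background, the length classes and relations, the promoter words and the looser long-read rule were chosen after seeing the data. The fit was tested on simulated counts with 200 changed genes over 30309 to 30346 features. It recovered 75% to 86% of genes changed by 1 and 100% of those changed by 3 on the log2 scale. Unchanged genes made up 2.62% to 4.37% of the calls. Only genes above a minimum mean were changed. The simulated libraries varied at a set spread not fitted to the data, with no difference shared by both fractions of a culture. These rates thus need not hold for the data. Promoters are from RefSeq (GRCm38.p6). Computations used Python 3.11.15, numpy 2.4.6, pandas 2.3.3 and scipy 1.17.1.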

Additional observations from a re-analysis of the deposited data

How the results depend on the processing

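Over both pseudocounts, edgeR, DESeq2, no trend, quantile scaling, the filters, the block and the stricter overlap of 0.8, between 2 and 4 members were higher in chromatin and between 22 and 29 lower. Leaving out 1 library gave 2 to 5 higher (5 without chromatin replicate 3) and 22 to 25 lower. Leaving out both replicate 3 libraries, chosen after the data were seen, gave 6 higher. Scaling to the ERCC standards gave 8 higher and 7 lower, and 19 of the wider list lower, and the sign turned for Ccne1 (0.49), Ccne2 (0.16), Rb1 (0.30), Cdkn1b (0.51), Cdc6 (0.24), Mcm7 (0.014), Ccnb1 (0.49), Cdc25b (0.019), Cdc25c (0.45), Aurkb (0.32), Bub1 (0.60), Bub1b (0.12), Birc5 (0.70) and Top2a (0.15). Rows lying wholly inside a gene existed for 16 members and gave 8 lower and 2 more than 4 fold higher, Rb1 at 2.22 and Mcm7 at 4.85 with the sign turned, and 12 higher and 26 lower in the wider list; fewer genes were compared there. Quantile scaling turned Cdc25c (0.012), Birc5 (0.0085), Cenpf (-0.10), Kif11 (-0.41) and Tpx2 (-0.28), ended the calls of Cdc25c and Cenpe, called Kif11 lower, and put Ccnd1 (-2.41) and Rrm2 (-2.03) more than 4 fold lower. edgeR and DESeq2 also called Rb1 lower, and DESeq2 called Mki67 higher. edgeR turned Cdk6 (-0.031) and Kif11 (-0.054), with the block -0.013 and -0.052, and Kif11 was -0.0096 without both replicate 3 libraries. Leaving out 1 library moved Ccnd2 between -2.41 and 0.47, Cdk6 between -0.031 and 0.23, Cdkn1b between -0.34 and 0.0067, Birc5 between -0.067 and 0.0016 and Kif11 between -0.056 and 0.090. None of these 4 or Ccnd2 passed the main test. edgeR, no filter and no trend each ended the call of Cdc25a, no filter also those of Ccnd1, Aurkb and Top2a, and no trend also those of Ccnb1, Cdc25c and Aurkb. In the paired fit (replicate block) 4 were higher and 28 lower, against 34.5% and 28.8% of all features, adding Ccnd2, Ccne1, Rb1 and Mki67 and changing no other call. Long-read entries with a RefSeq accession gave 13 members above 0 in both libraries. The cause of these changes was not tested. Accession rows alone gave no value for any member. Of the 28 called members, 8 kept their call and direction under every alternative that covers all 39 genes, and 21 did so with the ERCC scaling set aside. Depth limits Ccnd1 and Ccnd2, and 2 long-read libraries allow no test.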

Other observations

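Replicate 3 departed from the other cultures for single cell cycle genes in 1 direction or the other. Against the mean of replicates 1 and 2 in the same fraction, Cdkn1a was at 0.49 in chromatin and 0.58 in the nucleoplasm. Plk1 was at 0.54 and 0.91, Cenpf at 0.59 and 0.99, Cenpe at 0.64 and 0.96, and Mki67 at 0.68 and 0.93, so that for these 4 the departure was larger in chromatin. Cdk1 went up in chromatin (1.25) and stayed at 0.99 in the nucleoplasm, as did Mcm7 (1.35 and 0.99). These are single libraries with no test. In both fractions replicate 3 was the lowest for 6 of 8 cardiomyocyte genes and the highest for 2, and the highest for 4 of 6 fibroblast genes. It was the lowest for 1 of 3 smooth muscle genes and the highest for 2, and the lowest for 2 of 4 endothelial genes. A link of these with the cell cycle genes was not tested. At the Pcna locus, shared with Tmem230, chromatin replicate 3 measured 9604 against 4806 and 4811, while the nucleoplasm libraries lay between 13400 and 14391.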
